A study of Homo sapiens with 9 samples.

Results

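The 70 genes described here are the protein-coding genes whose transcripts were most abundant in cells that received p65 2CS, out of 19951 protein-coding genes in the count table and 12504 whose p65 2CS mean reached 2 CPM (read counts scaled to 1000000 per library), or 0.560% of the latter. They were chosen by the measured levels themselves. The p65 2CS mean had to be at least 2 CPM and at least 1.4 times both the p65 WT mean and the vector mean, and the lowest p65 2CS library had to stand above all 6 other libraries. Of the 5 genes left out by name, 4 met these thresholds: RELA, PGK1, GADD45B and PLA2G4C, while BRD2 did not.

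RNA came from HEK293A cells, a line derived from human embryonic kidney, in which the gene for p65 (RELA) had been knocked out. Cells were transfected with a plasmid for p65 2CS, a plasmid for p65 WT or an empty vector, and after 24 h all groups were given TNFα at 20 ng/mL for 2 h. Libraries 7 to 9 are p65 2CS, 4 to 6 are p65 WT and 1 to 3 are vector, and values are listed in that order. The series concerns p65 palmitoylation. The labels do not spell out 2CS and do not say whether the knockout cells are 1 clone. They also do not say whether the libraries of a group are separate cultures. If the libraries are not separate cultures, p-values measure only the spread between samples, which may be technical. Without a group that had no TNFα, the levels cannot be split into a part due to TNFα and a part due to the plasmid.

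p65 is the transactivating subunit of the most common NF-kB dimer. TNFα signalling destroys the IkB inhibitor that holds this dimer in the cytoplasm, and the dimer then enters the nucleus and binds kB sites at genes such as NFKBIA, TNFAIP3 and the chemokines. Palmitoylation attaches a fatty acid to cysteine and can change where a protein sits in the cell.

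The total count was 17146134 to 25068515 in the p65 2CS libraries, 15989601 to 16507689 with p65 WT and 17923114 to 20162267 with vector. RELA itself took 2.57% of all counts with p65 2CS, 0.885% with p65 WT and 0.00686% with vector, so the form of p65 and the amount of its transcript cannot be told apart in any comparison with p65 2CS. Of 15 listed kidney and neural markers of the HEK293 line, 11 averaged at least 1 CPM in each group, and PAX8, NEFM, INA and TUBB3 did not; PAX8 averaged 0.658 CPM with p65 2CS, 4.201 with p65 WT and 0.140 with vector. Summed leukocyte markers stood at 6.22 to 6.79 CPM with p65 2CS, 6.32 to 7.09 with p65 WT and 4.91 to 5.41 with vector, with PTPRC, the pan-leukocyte marker, at 0 in every p65 WT and vector library; 4 of the 9 markers were tested. Summed endothelial and fibroblast markers were 82.4 to 86.0 CPM with p65 2CS, 118 to 122 with p65 WT and 82.4 to 89.9 with vector. Their part in the results was not tested.

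Promoter sequences are shown for 4 of the genes: FOXD4L1 and SOX30, which had the largest ratios, MX1, an interferon-induced gene, and NMNAT1, which holds a match to the NF-kB consensus. Each is 300 bases from RefSeq (GRCh38.p14), from 250 before the annotated start to 50 from it onward, read on the gene's own strand 5′ to 3′. Capitals mark TGANTCA, the AP-1 motif, in FOXD4L1 (chr2:113498415-113498714, plus strand), the NF-kB consensus in SOX30 (chr5:157671431-157671730, minus strand) and in NMNAT1 (chr1:9943225-9943524, plus strand), and in MX1 (chr21:41420308-41420607, plus strand) first the NF-kB consensus and then the core of the interferon-stimulated response element.
FOXD4L1: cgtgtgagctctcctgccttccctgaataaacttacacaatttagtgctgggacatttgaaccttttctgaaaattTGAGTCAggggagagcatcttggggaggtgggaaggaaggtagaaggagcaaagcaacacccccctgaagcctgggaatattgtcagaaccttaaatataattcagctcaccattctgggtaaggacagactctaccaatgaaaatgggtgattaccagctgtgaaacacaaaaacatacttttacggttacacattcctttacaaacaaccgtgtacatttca
SOX30: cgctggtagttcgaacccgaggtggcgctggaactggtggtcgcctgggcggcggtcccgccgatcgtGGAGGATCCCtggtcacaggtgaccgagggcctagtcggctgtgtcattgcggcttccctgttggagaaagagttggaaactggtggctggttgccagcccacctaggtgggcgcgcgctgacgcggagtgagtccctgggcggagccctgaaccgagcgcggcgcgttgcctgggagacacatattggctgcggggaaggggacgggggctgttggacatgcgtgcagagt
NMNAT1: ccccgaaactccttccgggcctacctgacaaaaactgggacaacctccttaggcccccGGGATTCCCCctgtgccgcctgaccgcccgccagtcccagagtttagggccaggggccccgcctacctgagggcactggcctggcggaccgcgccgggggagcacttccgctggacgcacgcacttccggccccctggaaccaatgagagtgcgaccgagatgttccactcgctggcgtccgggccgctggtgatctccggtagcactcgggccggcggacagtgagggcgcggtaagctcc
MX1: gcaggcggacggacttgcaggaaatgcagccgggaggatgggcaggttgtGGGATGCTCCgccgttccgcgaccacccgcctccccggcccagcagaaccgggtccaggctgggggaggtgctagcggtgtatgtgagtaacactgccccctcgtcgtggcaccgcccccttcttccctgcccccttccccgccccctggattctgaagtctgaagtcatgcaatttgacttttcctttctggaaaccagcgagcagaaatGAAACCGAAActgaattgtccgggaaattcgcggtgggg
The start used for FOXD4L1 and SOX30 is the one in the count table's annotation, whereas that of NMNAT1 lies 47 bases from it and that of MX1 254 bases from it.

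A RefSeq promoter was found for 51 of the 70 genes. The NF-kB consensus, searched on both strands, was in 5 of the 51 (9.80%): SOX30, NMNAT1 and MX1 above, ASXL3 and CCNJL. Among all 27305 promoters of that length, 10.8% held it. The core of the interferon element, GAAANNGAAA, was in 7.84% of the members' promoters and 3.65% of all promoters; the 4 genes are ABCC2, CCDC102B, LGALS9 and MX1. TGANTCA was in 3.92% against 7.76%, TGACGTCA in 3.92% against 1.98% and CACGTG, the E-box, in 7.84% against 7.43%. GGGCGG, the GC box, was in 56.9% of the members' promoters and 44.6% of all, CCAAT in 41.2% and 35.7%, and TATAAA in 11.8% and 11.95%. GC content had a median of 61.0% in the members' promoters and 58.3% over all. These are counts of letters in 1 window per gene, without a test, and sites farther away were not searched. The 27305 promoters outnumber the 12504 protein-coding genes that reached 2 CPM. They were therefore not matched to the members for expression, and these shares are not read as traits of the members. A window need not lie at the start in the count table's annotation. That of CCNJL is chr5:160312515-160312814, whereas the gene, on the minus strand, starts at 160345396 in that annotation. That of LGALS9 is chr17:27630938-27631237, whereas the gene, on the plus strand, starts at 27629798.

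The set lay low on the scale of expression and its margins were modest. The p65 2CS mean was 2 to 3 CPM in 21 genes, 3 to 5 CPM in 21, 5 to 10 CPM in 14, 10 to 20 CPM in 9 and above that in 5. Ratios to the higher of the other 2 group means were 1.4 to 1.5 in 26 genes, 1.5 to 2 in 37, 2 to 3 in 5 and above 3 in 2, with a median of 1.54. Per kilobase of gene length, the p65 2CS level ranged from 0.154 to 12.3 CPM over the members with a median of 0.787, against a median of 6.60 over the 12504 genes that reached 2 CPM. A member's count had a median of 83.5 reads per p65 2CS library, 36.5 per p65 WT library and 44.5 per vector library. The coefficient of variation between libraries had a median of 10.48% with p65 2CS, 15.99% with p65 WT and 14.2% with vector. Over the 4084 protein-coding genes at 2 to 20 CPM with p65 2CS, these medians were 8.74%, 9.80% and 8.84%. That set was not matched for level: its median p65 2CS mean was 8.75 CPM, against 3.96 CPM for the members. The rule asks every p65 2CS library to be high, and the members' counts were larger in those libraries. The members' lower coefficient of variation with p65 2CS therefore says nothing about how reproducible the libraries were. The part of each was not tested.

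The same thresholds were met by 690 protein-coding genes that were highest with p65 WT and by 43 that were highest with vector. Genes highest with p65 2CS made up 3.60% of those with a p65 2CS mean of 2 to 5 CPM (42 of 1166), 0.788% at 5 to 20 CPM (23 of 2918), 0.0814% at 20 to 100 CPM (5 of 6146) and 0 of 2274 above that, or 3 of 2274 (0.132%) with RELA, PGK1 and GADD45B, which are left out by name. Genes highest with p65 WT made up 14.8% at 2 to 5 CPM and still 61 of 2290 at 100 CPM or more. Outside the protein-coding class, 17 genes met the same thresholds with p65 2CS. LHFPL3-AS2, a processed transcript, had the largest ratio of the 17, at 2.51 ± 0.62 CPM with p65 2CS, 0.801 ± 0.058 with p65 WT and 0.467 ± 0.194 with vector (SD, n = 3 each).

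**Figure D1:**
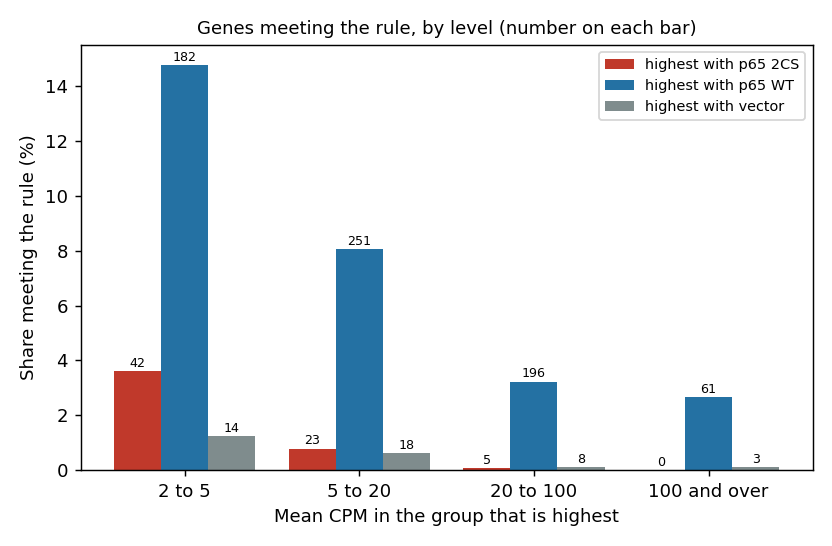
Share of protein-coding genes (%) that met the thresholds within each range of mean CPM, for genes highest with p65 2CS, p65 WT and vector, with the number of genes on each bar. Of the 70 genes highest with p65 2CS, 42 lie at 2 to 5 CPM and 0 at 100 CPM or more; the p65 2CS bars leave out RELA, PGK1 and GADD45B, which would make 3 at 100 CPM or more, and PLA2G4C, which would make 24 at 5 to 20 CPM. Genes highest with p65 WT number 61 at 100 CPM or more.

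**Figure D2:**
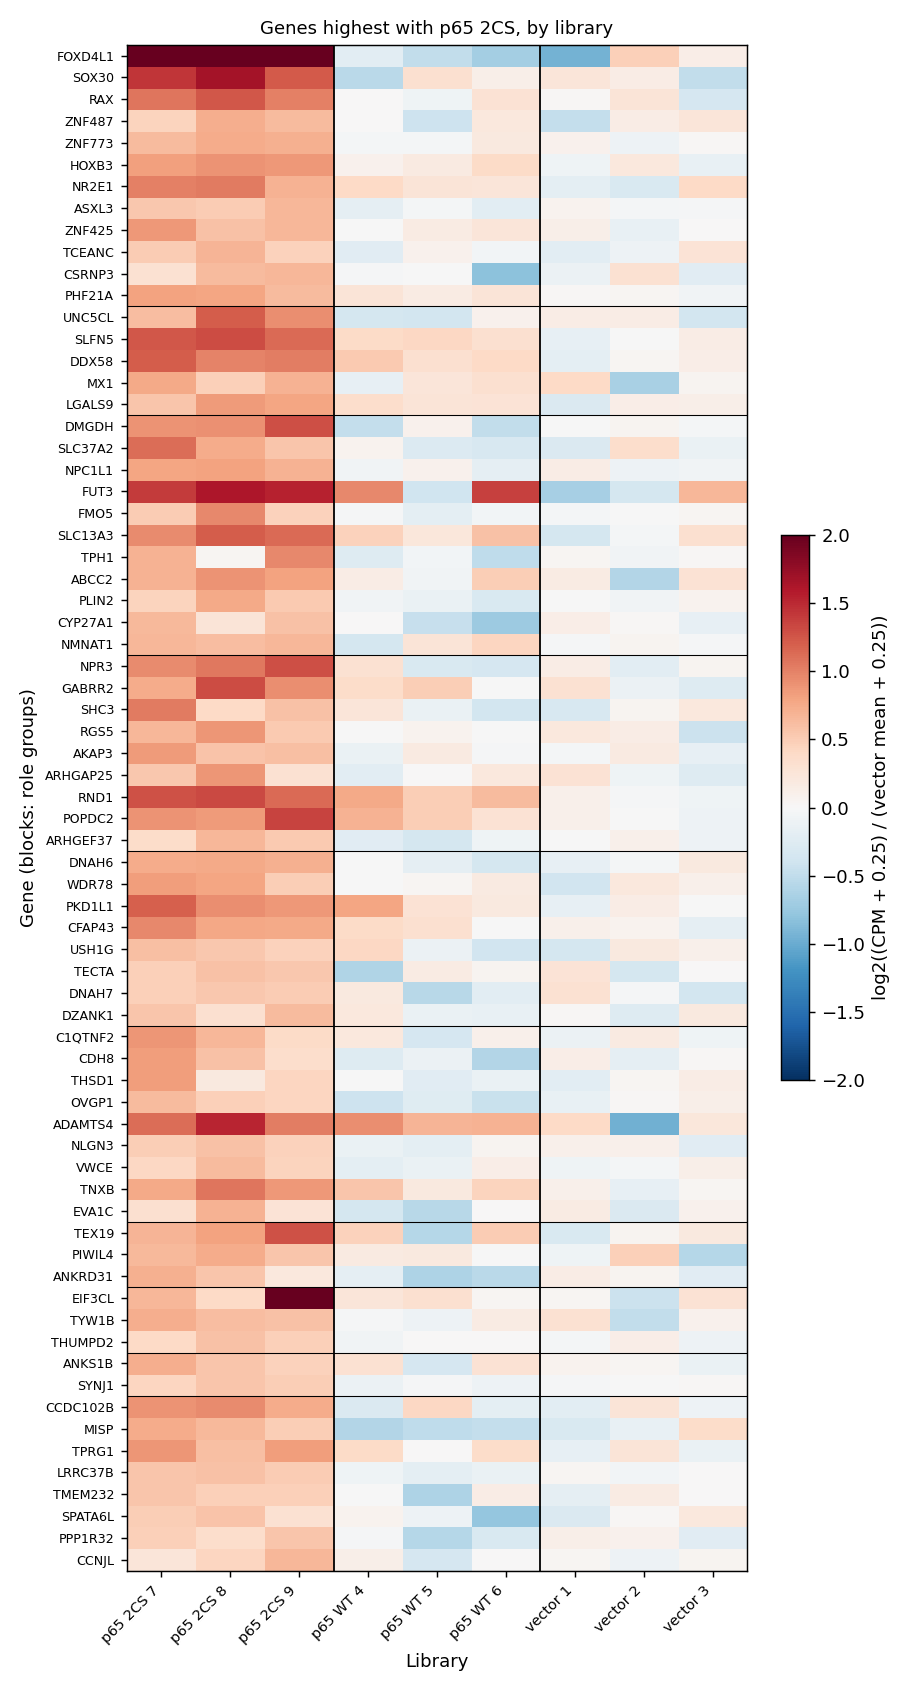
Level of each of the 70 genes (rows, in blocks by role) in each library (columns), as log2 of CPM plus 0.25 over the vector mean plus 0.25, with colours limited at 2 in either direction. The 3 p65 2CS columns are redder than the other 6 in each row because the genes were chosen for this; FOXD4L1 and the library 9 value of EIF3CL run past the colour limit.

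Among the DNA-binding and chromatin regulators, 12 genes, FOXD4L1 and SOX30 stood apart from the rest. FOXD4L1 (ENSG00000184492), a forkhead transcription factor gene with a single exon on chromosome 2 (113498665 to 113501155, plus strand), had 3.73, 3.83 and 3.05 CPM with p65 2CS, against 0.432, 0.313 and 0.242 CPM with p65 WT and 0.162, 0.843 and 0.614 CPM with vector. Its p65 2CS mean was 6.56 times the vector mean and 10.7 times the p65 WT mean, and its lowest p65 2CS library was 3.62 times the highest of the other 6. FOXD4L1 is 1 of a family of near-identical copies, and reads of these genes may have been split among them. The FOXD4 family summed over 6 genes, FOXD4L1 included, came to 8.92, 11.2 and 9.94 CPM with p65 2CS, against 4.57, 5.13 and 5.15 CPM with p65 WT and 6.0, 4.96 and 4.18 CPM with vector. The ratio of this sum was 1.98. The sum had no overlap, but it holds FOXD4L1, which was chosen for having none. The 5 relatives alone had a ratio of 1.401. FOXD4, the most abundant of them, did overlap, with 4.84 CPM in p65 2CS library 7 and 4.97 CPM in vector library 1.

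SOX30, a transcription factor of male germ cells, had 2.16, 2.59 and 1.84 CPM with p65 2CS, against 0.371, 0.876 and 0.727 CPM with p65 WT and 0.811, 0.744 and 0.391 CPM with vector. RAX, the retinal homeobox factor, had 3.50, 3.99 and 3.37 CPM with p65 2CS, against 1.54, 1.44 and 1.94 CPM with p65 WT and 1.57, 1.88 and 1.17 CPM with vector. For both, the p65 WT and vector libraries covered the same range, and all 3 p65 2CS libraries lay above it, at 2.10 times its top for SOX30 and 1.74 times for RAX at the least. These are developmental factors that averaged 2.20 CPM (SOX30) and 3.62 CPM (RAX) with p65 2CS in this kidney-derived line. With p65 WT and vector the means were 0.658 and 0.648 CPM for SOX30, and 1.64 and 1.54 CPM for RAX.

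PHF21A, the subunit of the LSD1-CoREST complex that reads unmethylated histone H3, had the highest count share of the 70 genes, with 58.3, 57.7 and 51.5 CPM with p65 2CS, against 39.7, 37.3 and 39.6 CPM with p65 WT and 33.9, 34.0 and 31.6 CPM with vector. The 3 groups did not overlap, with p65 WT in the middle. ZNF773, a zinc finger protein, had 29.7, 31.9 and 31.5 CPM with p65 2CS, against 18.6, 18.6 and 21.7 CPM with p65 WT and 20.1, 17.7 and 19.3 CPM with vector. HOXB3, a homeobox factor, had 13.9, 14.6 and 14.3 CPM with p65 2CS, against 8.21, 8.76 and 10.1 CPM with p65 WT and 7.24, 8.93 and 6.97 CPM with vector. In ZNF773 and HOXB3 the p65 WT and vector libraries overlapped, and all p65 2CS libraries lay above both. The other members of the group were ZNF487, NR2E1, ASXL3, ZNF425, TCEANC and CSRNP3, with ratios of 1.48 to 1.59. By transcription factor family symbols, 8 of the 70 genes (11.4%) qualified, against 9.40% of all genes that reached 2 CPM and 11.8% of those under 20 CPM.

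Innate immunity and death domain signalling held 5 genes, 2 of which are on the list of interferon response genes. SLFN5, an interferon-inducible Schlafen family gene on chromosome 17 (35243036 to 35273655, plus strand), had 32.5, 34.0 and 30.2 CPM with p65 2CS, against 17.8, 18.3 and 17.0 CPM with p65 WT and 12.2, 13.6 and 15.2 CPM with vector. DDX58 (ENSG00000107201), which encodes the cytoplasmic RNA sensor RIG-I, had 15.2, 12.9 and 13.3 CPM with p65 2CS, against 9.33, 8.07 and 8.48 CPM with p65 WT and 5.57, 6.60 and 7.03 CPM with vector. Both genes were graded, with p65 2CS highest, p65 WT between and vector lowest, and no library crossed into a neighbouring group.

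MX1, the antiviral dynamin-like GTPase, had 3.03, 2.47 and 2.89 CPM with p65 2CS, against 1.48, 2.06 and 2.18 CPM with p65 WT and 2.32, 0.992 and 1.79 CPM with vector. LGALS9, galectin-9, had 1.75, 2.19 and 2.10 CPM with p65 2CS, against 1.48, 1.38 and 1.39 CPM with p65 WT and 0.865, 1.24 and 1.23 CPM with vector. The margin of MX1 was small, its lowest p65 2CS library being 1.06 times the highest vector library. UNC5CL, a death domain protein reported to activate NF-kB when overexpressed, had 4.32, 6.70 and 5.47 CPM with p65 2CS, against 2.10, 2.06 and 2.91 CPM with p65 WT and 3.08, 3.08 and 2.06 CPM with vector. UNC5CL shares 23.8% of its exon bases with OARD1 on the same strand, a gene that stood at 19.2 CPM with p65 2CS, 18.9 with p65 WT and 19.5 with vector.

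The interferon response list was not highest with p65 2CS as a whole. Of its 31 genes tested, edgeR's quasi-likelihood test with Benjamini-Hochberg adjustment over all genes called 2 higher and 8 lower with p65 2CS than with p65 WT (13.4% and 17.9% of all genes), and the 2 higher were DDX58, a member, and ISG20, which is not. IFIH1, the sister RNA sensor of DDX58, averaged 8.85 ± 0.89 CPM with p65 2CS, 14.8 ± 1.2 with p65 WT and 4.80 ± 0.53 with vector (SD, n = 3 each), and IRF1 averaged 30.8 ± 0.2, 57.6 ± 1.1 and 14.8 ± 1.3 CPM in that order. DDX58 and IFIH1 thus had opposite orders of p65 2CS and p65 WT. Against vector the list had 10 higher and 1 lower with p65 2CS, where 12.1% and 11.4% of all genes were called, and a median log2 fold of 0.31. Among the 10 were DDX58 and MX1, members that the rule chose for standing above vector, so their calls repeat the choice. With p65 WT against vector the list had 13 higher and 1 lower, where 16.4% and 12.5% of all genes were called, and a median log2 fold of 0.22. The other 13 lists hold none of the 70 genes. Of them, the list of NF-kB feedback and subunit genes had 20 of 23 higher with p65 2CS than with vector and 18 of 23 lower with p65 2CS than with p65 WT, with 0 in the other direction each time, against the shares of all genes just given for these contrasts.

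Receptors, G protein and small GTPase signalling held 9 genes. NPR3, the clearance receptor for natriuretic peptides, had 1.98, 2.15 and 2.58 CPM with p65 2CS, against 1.17, 0.688 and 0.666 CPM with p65 WT and 1.03, 0.744 and 0.948 CPM with vector. RND1 had 7.52, 7.82 and 6.79 CPM with p65 2CS, against 5.19, 4.25 and 4.73 CPM with p65 WT and 3.19, 2.93 and 2.79 CPM with vector. POPDC2, a Popeye domain protein that binds cAMP, had 2.16, 2.07 and 3.05 CPM with p65 2CS, against 1.85, 1.56 and 1.33 CPM with p65 WT and 1.14, 1.04 and 0.948 CPM with vector. NPR3 was level between p65 WT and vector, while RND1 and POPDC2 were graded without overlap between any of the 3 groups. The others were GABRR2, a GABA receptor subunit, the adaptor SHC3, RGS5, which limits G protein signalling, the kinase A anchor AKAP3, ARHGAP25 and ARHGEF37.

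Transport, lipid and small-molecule metabolism held 11 genes. DMGDH, the mitochondrial dimethylglycine dehydrogenase of choline breakdown, had 2.16, 2.19 and 2.89 CPM with p65 2CS, against 0.679, 1.13 and 0.666 CPM with p65 WT and 1.03, 1.09 and 1.00 CPM with vector. SLC37A2, a sugar phosphate exchanger, had 5.02, 3.79 and 3.31 CPM with p65 2CS, against 2.29, 1.75 and 1.70 CPM with p65 WT and 1.73, 2.83 and 1.95 CPM with vector. All p65 2CS libraries of DMGDH lay at least 1.92 times above the highest other library, and for SLC37A2 that margin was 1.17. CYP27A1, the sterol 27-hydroxylase of bile acid synthesis, had 2.45, 1.80 and 2.32 CPM with p65 2CS, against 1.48, 1.00 and 0.788 CPM with p65 WT and 1.62, 1.49 and 1.28 CPM with vector. FUT3, the fucosyltransferase of the Lewis antigens, had 1.92, 2.27 and 2.16 CPM with p65 2CS, against 1.36, 0.375 and 1.88 CPM with p65 WT and 0.270, 0.397 and 1.06 CPM with vector. FUT3 was the most uneven of these within p65 WT, where library 5 lay at the level of vector. The group also held NPC1L1, the intestinal cholesterol importer, the flavin monooxygenase FMO5, the dicarboxylate carrier SLC13A3, TPH1, which starts serotonin synthesis, the organic anion pump ABCC2, the lipid droplet coat protein PLIN2 and NMNAT1, the nuclear enzyme of NAD synthesis. NMNAT1 had 12.5, 12.01 and 12.4 CPM with p65 2CS, against 6.05, 9.32 and 10.6 CPM with p65 WT and 7.62, 8.08 and 7.64 CPM with vector.

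Of the 3 genes of RNA modification and translation, EIF3CL rested on 1 library. EIF3CL, a second copy of the translation initiation subunit gene EIF3C, had 8.69, 7.18 and 36.5 CPM with p65 2CS, against 6.42, 6.82 and 5.57 CPM with p65 WT and 5.57, 3.97 and 6.70 CPM with vector. Library 9 alone was high; without it the mean of the other 2 was 7.94 CPM and the ratio 1.27, under the threshold. EIF3C was uneven too, and with p65 2CS it was high in library 7 and not in library 9, with 68.1, 24.8 and 27.3 CPM with p65 2CS, against 21.1, 43.2 and 22.8 CPM with p65 WT and 21.7, 24.3 and 45.5 CPM with vector. Since the copies are nearly identical, how reads were divided between them is uncertain, and the level of EIF3CL is uncertain with it. THUMPD2, an RNA methyltransferase, had 44.2, 50.2 and 46.5 CPM with p65 2CS, against 31.7, 33.8 and 33.7 CPM with p65 WT and 32.7, 36.6 and 31.1 CPM with vector. Per kilobase THUMPD2 had the highest level of the 70, at 12.3 CPM with p65 2CS, 8.65 with p65 WT and 8.76 with vector. The third, TYW1B, a copy of the wybutosine synthesis gene TYW1, stood at 7.27 ± 0.43 CPM with p65 2CS, 4.64 ± 0.46 with p65 WT and 4.57 ± 1.28 with vector (SD, n = 3 each), while TYW1 had a ratio of 1.24.

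**Figure D3:**
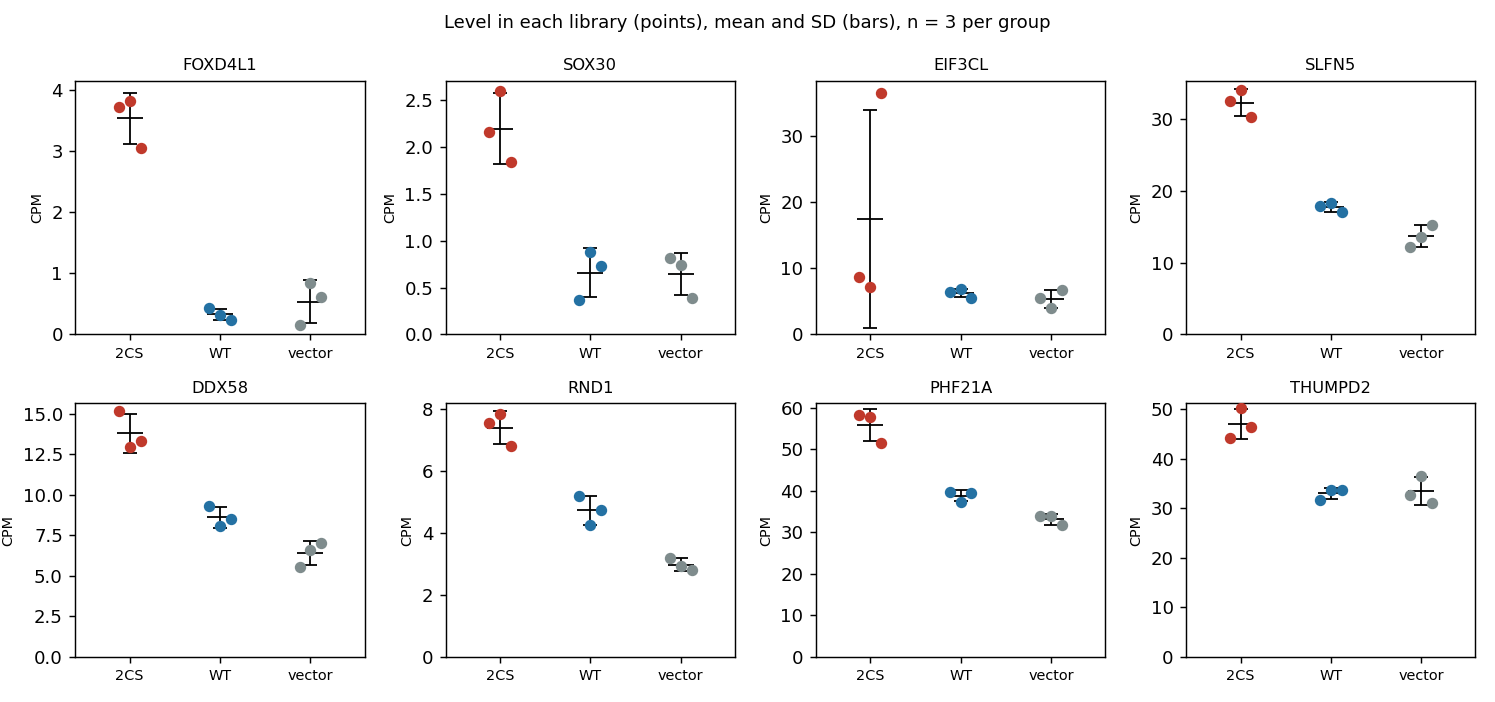
CPM in each library (points), with the mean and SD over 3 libraries (bars), for 8 of the genes in p65 2CS (left), p65 WT and vector (right). SLFN5, DDX58, RND1 and PHF21A step down from p65 2CS through p65 WT to vector; FOXD4L1, SOX30 and THUMPD2 are level between p65 WT and vector within their spread; EIF3CL is high in library 9 alone, at 36.5 CPM.

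Axonemal dynein, cilia and mechanosensory hair cell genes numbered 8. DNAH6 and DNAH7, heavy chains of the inner dynein arms, averaged 10.5 ± 0.2 and 3.27 ± 0.07 CPM with p65 2CS, 5.51 ± 0.67 and 1.97 ± 0.58 CPM with p65 WT, and 6.24 ± 0.83 and 2.22 ± 0.57 CPM with vector (SD, n = 3 each). The dynein chain WDR78, the cilia and flagella protein CFAP43, USH1G of the hair cell tip link complex, TECTA of the tectorial membrane and DZANK1 had ratios of 1.46 to 1.62. PKD1L1, a polycystin of the left-right organizer, had 3.03, 2.47 and 2.37 CPM with p65 2CS, against 2.22, 1.501 and 1.39 CPM with p65 WT and 1.03, 1.34 and 1.17 CPM with vector, so that the 3 groups did not overlap. Germline and meiosis genes were TEX19, the piRNA-binding protein PIWIL4, and ANKRD31, which places meiotic DNA breaks. ANKRD31 had 7.29, 6.50 and 5.05 CPM with p65 2CS, against 3.83, 2.75 and 2.91 CPM with p65 WT and 4.87, 4.51 and 3.68 CPM with vector, and here it was p65 WT that was lowest on average.

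Cell adhesion, matrix and secreted proteins held 9 genes. TNXB, the matrix protein tenascin-X, averaged 12.8 ± 1.4 CPM with p65 2CS, 8.99 ± 1.12 with p65 WT and 6.72 ± 0.64 with vector (SD, n = 3 each). ADAMTS4, an aggrecan-cutting protease, had 1.87, 2.55 and 1.74 CPM with p65 2CS, against 1.61, 1.31 and 1.33 CPM with p65 WT and 1.03, 0.248 and 0.893 CPM with vector. OVGP1, the oviductal glycoprotein, had 8.52, 7.66 and 7.42 CPM with p65 2CS, against 4.01, 4.57 and 3.94 CPM with p65 WT and 4.87, 5.51 and 5.91 CPM with vector. TNXB and ADAMTS4 were graded from p65 2CS down to vector, and OVGP1 had p65 WT below vector without overlap. EVA1C, a heparin-binding membrane protein, had 2.62, 3.47 and 2.53 CPM with p65 2CS, against 1.54, 1.31 and 2.06 CPM with p65 WT and 2.32, 1.64 and 2.18 CPM with vector. C1QTNF2, the cadherin CDH8, THSD1, the synaptic adhesion protein NLGN3 and VWCE completed the group.

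The synapse group was SYNJ1, the phosphoinositide phosphatase that uncoats synaptic vesicles, and ANKS1B. SYNJ1 had 27.9, 30.4 and 29.04 CPM with p65 2CS, against 19.1, 20.3 and 19.3 CPM with p65 WT and 20.2, 20.6 and 21.1 CPM with vector. Of 8 genes placed in none of these roles, LRRC37B, a leucine-rich repeat membrane protein, had 17.9, 18.2 and 17.2 CPM with p65 2CS, against 11.3, 10.5 and 11.0 CPM with p65 WT and 12.4, 11.7 and 12.1 CPM with vector. In SYNJ1 and LRRC37B the gap to p65 2CS is what the rule chose on. SYNJ1 no longer met the rule without p65 2CS library 8 or without vector library 1. Summed with its 3 relatives LRRC37A, LRRC37A2 and LRRC37A3, LRRC37B had a ratio of 1.19.

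CCDC102B, a centrosomal coiled-coil protein, had 4.14, 4.31 and 3.68 CPM with p65 2CS, against 1.67, 2.88 and 1.82 CPM with p65 WT and 1.78, 2.58 and 1.95 CPM with vector. MISP, which positions the mitotic spindle, had 5.54, 5.15 and 4.58 CPM with p65 2CS, against 2.04, 2.19 and 2.24 CPM with p65 WT and 2.54, 2.88 and 4.18 CPM with vector. CCDC102B was level between p65 WT and vector, and all p65 WT libraries of MISP lay below all vector libraries. TPRG1 had 2.27, 1.83 and 2.21 CPM with p65 2CS, against 1.54, 1.13 and 1.51 CPM with p65 WT and 0.973, 1.39 and 1.00 CPM with vector. The remaining 4 were TMEM232, SPATA6L, PPP1R32 and CCNJL.

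**Figure D4:**
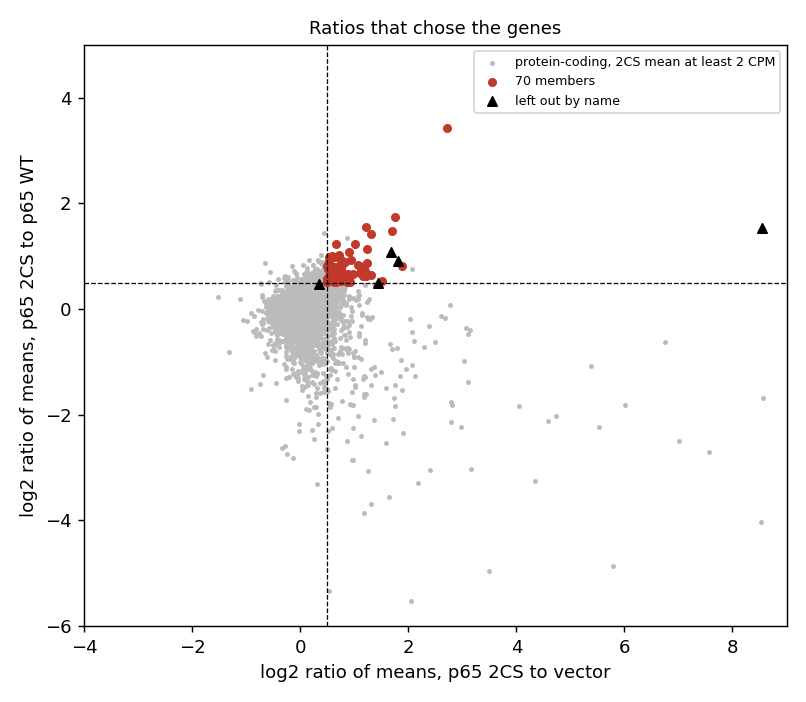
Ratio of group means on a log2 scale, p65 2CS to vector (horizontal) and p65 2CS to p65 WT (vertical), for 12501 protein-coding genes with a p65 2CS mean of at least 2 CPM and reads in the other groups. Dashed lines mark the 1.4-fold threshold; the 70 genes (red) lie beyond both lines, most of them close to the corner, and black triangles are the 5 genes left out by name.

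The thresholds cut through a continuum. Just inside 2 CPM lay LGALS9, ADAMTS4 and TPRG1, with p65 2CS means of 2.02, 2.05 and 2.11 CPM. Just outside lay FAM184B, REELD1 and IPCEF1, sought only among genes that met the rest of the rule. FAM184B had 2.39, 1.68 and 1.89 CPM with p65 2CS, against 0.926, 1.00 and 0.969 CPM with p65 WT and 0.973, 1.29 and 1.17 CPM with vector. REELD1 had 1.87, 1.83 and 2.05 CPM with p65 2CS, against 0.926, 0.750 and 0.969 CPM with p65 WT and 0.811, 1.09 and 0.335 CPM with vector. IPCEF1 had 2.27, 1.72 and 1.74 CPM with p65 2CS, against 0.618, 1.25 and 1.33 CPM with p65 WT and 1.08, 0.992 and 0.725 CPM with vector. These 3 had ratios of 1.74, 2.17 and 1.79, above the members' median. They had no overlap with the other libraries because the search required it. At the 1.4-fold threshold, THUMPD2 (1.403), EVA1C (1.405) and SYNJ1 (1.410) were inside.

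Outside it were AOC3 (1.399), KCNT2 (1.397) and WDPCP (1.391). AOC3 had 6.71, 7.06 and 7.42 CPM with p65 2CS, against 4.82, 4.57 and 4.42 CPM with p65 WT and 5.08, 4.76 and 5.30 CPM with vector. KCNT2 had 9.21, 9.93 and 8.26 CPM with p65 2CS, against 6.61, 6.82 and 6.18 CPM with p65 WT and 6.38, 6.60 and 6.64 CPM with vector. WDPCP had 9.27, 11.2 and 7.52 CPM with p65 2CS, against 7.16, 5.38 and 6.48 CPM with p65 WT and 5.62, 7.29 and 7.20 CPM with vector. These 3 too were sought only among genes without overlap between p65 2CS and the other libraries. A further 11 protein-coding genes passed level and fold but had overlapping libraries, among them FOXD4, the relative of FOXD4L1.

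The summed level of the 70 genes was 535, 551 and 546 CPM with p65 2CS, against 335, 325 and 339 CPM with p65 WT and 318, 321 and 322 CPM with vector. Without EIF3CL the p65 2CS sums were 526, 544 and 509 CPM. Among the p65 2CS libraries, the highest value was in library 7 for 23 genes, in library 8 for 36 and in library 9 for 11; library 8 was also the deepest. Of the 70 genes, 36 met the rule whichever of the 9 libraries was left out, and 34 failed it without at least 1 of them. Leaving out library 8 removed 11 genes, among them SOX30, whose mean then fell under 2 CPM, and leaving out library 9 removed 7, including EIF3CL and TPH1.

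In the fit over all genes, the contrasts with p65 2CS repeat the choice and are given as description. Against p65 WT, 59 of the 70 genes were called higher with p65 2CS and 0 lower, where 13.4% and 17.9% of all 18195 genes tested were called higher and lower. Against vector, 61 were called higher and 0 lower, where the shares of all genes were 12.1% and 11.4%. Both contrasts called 52 genes, 16 were called in 1 of them, and USH1G and CCNJL in neither. Nothing is read from these counts, since the rule used both contrasts.

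How p65 WT compares with vector was not what the rule ranked on, though by holding both groups below p65 2CS it also limits how far they can differ. All 70 genes passed the filter on low counts. The quasi-likelihood test of edgeR called 7 of the 70 (10%) higher with p65 WT than with vector and 0 lower, at a Benjamini-Hochberg adjusted p under 0.05 over all genes. Over all genes tested, 16.4% were called higher and 12.5% lower, so the members' share was below the background in both directions. The members lie low on the scale of expression, and the background was not matched for level. How far level or the rule bears on the shares was not tested. At an unadjusted p under 0.05 the counts were 10 higher and 3 lower, and DESeq2 called 6 higher and 0 lower. The p65 WT mean was above the vector mean in 35 genes and below it in 35, and the ratio of the 2 means was between 0.8 and 1.25 in 52. The median log2 fold was 0.04 over the 70 genes and -0.02 over all genes.

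The 7 genes that rose with p65 WT over vector were FUT3 and 6 of the 9 whose p65 WT libraries all lay above all vector libraries; in POPDC2, PKD1L1 and LGALS9 the libraries were also apart, without a call. In 4 genes (OVGP1, MISP, LRRC37B and PLIN2) all p65 WT libraries lay below all vector libraries. Over all genes tested, the p65 WT libraries lay wholly above the vector libraries in 16.9% and wholly below in 27.5%. The members' 9 and 4 of 70 (12.9% and 5.71%) were thus both below the background, which was not matched for level. These counts of libraries use CPM by column totals, without the TMM scaling behind the calls. PLIN2 was barely apart, with 4.262 CPM in p65 WT library 4 and 4.265 CPM in vector library 2. RND1 had a log2 fold of 0.71 ± 0.17 (SE; adjusted p = 0.0011, edgeR). SLFN5 had 0.42 ± 0.09 (adjusted p = 0.0002, edgeR), DDX58 0.47 ± 0.13 (adjusted p = 0.0035, edgeR) and TNXB 0.47 ± 0.13 (adjusted p = 0.005, edgeR). PHF21A had the smallest fold of the 7, at 0.27 ± 0.06 (adjusted p = 0.00072, edgeR). ADAMTS4 had 1.03 ± 0.36 (adjusted p = 0.028, edgeR) and FUT3 1.12 ± 0.43 (adjusted p = 0.047, edgeR). The call of ADAMTS4 was lost without p65 WT library 4 (adjusted p = 0.094) or without vector library 2 (adjusted p = 0.23), and over its alternatives the adjusted p ran from 0.012 to 0.23. The call of FUT3 was lost in 9 of 15 alternatives, with adjusted p from 0.0027 to 0.38. The other 5 kept their call in all 15. POPDC2 at 0.64 ± 0.30 and PKD1L1 at 0.57 ± 0.28 had folds of like size without passing the test.

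At the other end, FOXD4L1 had a log2 fold of -0.68 ± 0.49, MISP -0.52 ± 0.22, ANKRD31 -0.42 ± 0.19, CYP27A1 -0.38 ± 0.31 and OVGP1 -0.34 ± 0.16 for p65 WT against vector. None of the 5 passed the test, with adjusted p of 0.33, 0.066, 0.097, 0.38 and 0.10 in edgeR. MISP passed with library totals alone as the scaling (adjusted p = 0.039) and without vector library 1 (adjusted p = 0.029), and ANKRD31 without p65 WT library 4 (adjusted p = 0.038). FOXD4L1, with 4 to 7 reads per p65 WT library and 3 to 17 per vector library, had a difference there that was not told from the spread at this depth.

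**Figure D5:**
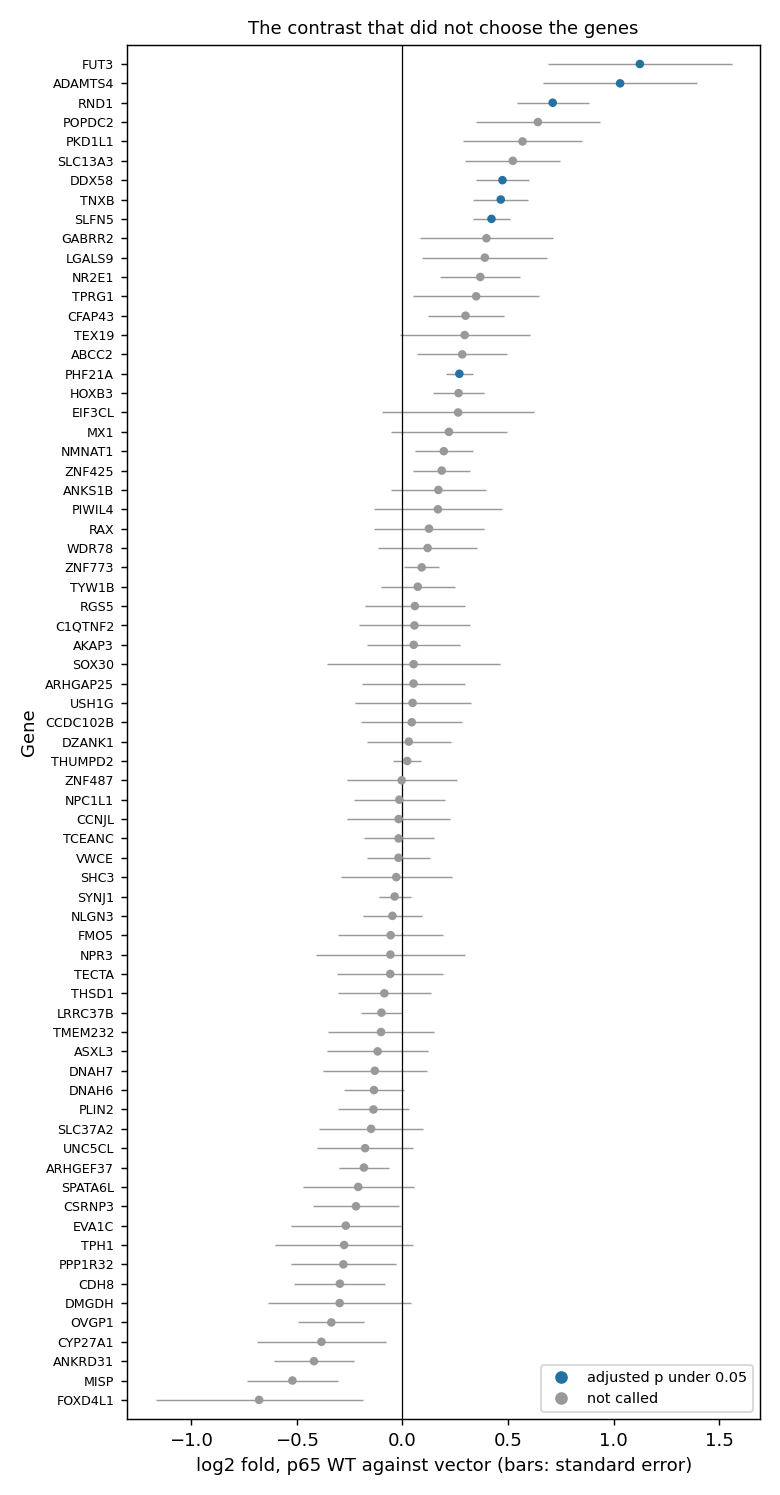
log2 fold of p65 WT against vector (horizontal, with its standard error) for each of the 70 genes, ordered by fold. Blue points are the 7 genes with an adjusted p under 0.05, all higher with p65 WT; the folds run from -0.68 for FOXD4L1 to 1.12 for FUT3 on both sides of 0.

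Gene length had a median of 5539 bases over the 70 and 5284 over the genes that reached 2 CPM, the span on the genome 51191 against 34571 bases, and exon blocks 13 against 11. FOXD4L1 was the one gene with a single exon block. They were spread over 18 chromosomes, with 8 genes on chromosome 5 at most. CCNJL, a cyclin J-like gene (chromosome 5, 160249106 to 160345396), and C1QTNF2, a secreted relative of adiponectin (160347751 to 160370641), were the only members with no protein-coding gene between them; they lie 2355 bases apart on the minus strand. CCNJL averaged 2.88 ± 0.46 CPM with p65 2CS, 1.95 ± 0.34 with p65 WT and 2.04 ± 0.13 with vector, and C1QTNF2 2.86 ± 0.53, 1.74 ± 0.38 and 1.72 ± 0.23 CPM in that order (SD, n = 3 each).

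Exon overlap with another gene was absent in 44 of the 70 genes and above 10% in 6: UNC5CL, TEX19, HOXB3, POPDC2, PIWIL4 and PPP1R32. POPDC2 shares 15.7% of its exon bases with COX17 on the same strand, and COX17 stood at 18.7 CPM with p65 2CS, 20.8 with p65 WT and 22.2 with vector. PIWIL4 shares 14.98% with FUT4, which stood at 21.6 CPM with p65 2CS, 23.0 with p65 WT and 24.5 with vector. COX17 and FUT4 were not highest with p65 2CS, but some reads of POPDC2 and PIWIL4 may belong to these more abundant partners. HOXB3 shares 5.81% of its exon bases with HOXB6 on the same strand. HOXB6 was highest with p65 2CS on average, at 14.2 CPM, with 10.9 for p65 WT and 13.4 for vector. How far shared reads bear on HOXB3 was not tested. Without the strand setting, reads from an opposite gene cannot be separated either.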

How the data were processed

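Poly-A RNA of 9 libraries, 3 per group, was sequenced, and the authors deposited raw read counts per gene. The aligner was HISAT2 2.0.5 per the submitters' processing notes. What counted the reads, with which strand setting and on which build, is not given in the sources used here. All 58735 genes match GENCODE release 29 (GRCh38) in identifier, start, end and strand, and positions are given by that match.

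CPM was computed as count over column total times 1000000. Counts were fitted with edgeR 4.0.16 (R 4.3.3; TMM scaling, filterByExpr, quasi-likelihood test, all 9 libraries in 1 fit, Benjamini-Hochberg over 18195 genes), which was checked on simulated counts. DESeq2 1.42.0 was an alternative, as were other scalings, filters, thresholds and leaving out each library. Figures were drawn with matplotlib 3.10.9.

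The members and gene lists were chosen with earlier results of these data known, and the roles were assigned after values were seen. CPM in every library is given for the 10 largest ratios, the 8 highest means, list members, the 5 lowest and 5 highest folds of p65 WT against vector, and the 3 genes on either side of each threshold. The genes outside a threshold were taken only from those that met the rest of the rule. Other genes given with their values, among them TNXB, NMNAT1, DNAH6, TYW1B and the neighbours CCNJL and C1QTNF2, were chosen after their values were seen.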

Additional observations from a re-analysis of the deposited data

How the results depend on the processing

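The number of genes that meet the rule depends on its thresholds more than on the scaling: it was 116 at 1.3-fold, 44 at 1.5-fold and 28 at 5 CPM, against 70 as reported. It was 69 with TMM-scaled CPM (65 of them shared with the 70), 103 at 1 CPM, 81 where overlap of libraries was allowed, 85 with RELA left out of the column totals, and 67 to 91 when a library was left out. Members called higher with p65 WT than with vector numbered 6 to 9 over all alternatives. Members called lower numbered 0, against 1 with library totals alone, and 0 to 1 when a library was left out. Their median log2 fold was 0.04, -0.0048 with library totals alone, and -0.00295 to 0.0644 when a library was left out (lowest without vector library 3). Library totals alone also moved the split of calls over all genes: p65 WT against vector had 2561 higher and 3642 lower, against 2976 and 2268 with TMM, and p65 2CS against p65 WT had 3098 higher and 2820 lower, against 2431 and 3254. The lower calls of p65 WT against vector were thus 1.61 times those with TMM, or 20.0% of all genes, and the cause was not tested; higher and lower calls together stayed within 1.5 times in each contrast. No paired analysis was made, because the labels number the libraries through all groups and do not say whether any were handled together. A median of 36.5 reads per member and p65 WT library limits the precision for the low members, whereas the smallest called fold, that of PHF21A, rests on 596 to 653 reads per p65 WT library.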
